A study of Homo sapiens with 6 samples.

Results

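Matrix Gla protein (MGP) and 5 other genes that act on tissue mineral, SPP1, ENPP1, ANKH, ALPL and SPARC, were followed in TC32, an established human Ewing sarcoma cell line. The 6 genes were taken by name from 26931 gene symbols in the deposited tables. They were chosen with their values in these libraries in view, and MGP for its large difference between the siRNAs, so their values are given as a description and without a test. All cells came from the same line and were harvested 48 h after transfection with an siRNA against EWSR1 (siEWSR1), an siRNA against FLI1 (siFLI1) or a control siRNA (siNeg), with 2 libraries per group and 6 in all. Most Ewing sarcomas carry a fusion of EWSR1 and FLI1 that acts as a transcription factor, and the study set both siRNAs against that fusion. Which stretch of either gene the siRNAs bind was not stated in the labels, and nothing says that the libraries of a group came from separate cultures, so errors and p-values measure the spread between these libraries, which may be technical.

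Mineral forms in tissue when calcium and phosphate outrun their inhibitors. MGP is a small secreted protein whose glutamate residues are carboxylated in a vitamin K-dependent step. It binds calcium mineral, and mice without it calcify their arteries and cartilage. Osteopontin, the product of SPP1, is an acidic phosphoprotein that also coats mineral and binds integrins and CD44. Inorganic pyrophosphate is the main small-molecule inhibitor: ENPP1 makes it from extracellular nucleotides, ANKH supports its supply by releasing nucleotides and citrate from the cell, and ALPL, the tissue-nonspecific alkaline phosphatase, breaks it down. SPARC, or osteonectin, is a secreted protein that binds collagen and calcium and is abundant in bone matrix.

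The upstream sequences of 3 of the genes are shown because these genes stood at very different levels: SPARC among the most abundant RNAs, ENPP1 at a moderate level, and SPP1 at or near 0. Each line gives the 250 bases before the annotated start, 5′ to 3′ on the gene's strand, from RefSeq (GRCh38.p14), with GGAA on either strand in capitals, the core of the sites bound by ETS factors such as FLI1. The windows are chr5:151686916-151687165 (minus strand) for SPARC, chr6:131807770-131808019 (plus strand) for ENPP1 and chr4:87975464-87975713 (plus strand) for SPP1. MGP had no entry in the promoter table.
SPARC: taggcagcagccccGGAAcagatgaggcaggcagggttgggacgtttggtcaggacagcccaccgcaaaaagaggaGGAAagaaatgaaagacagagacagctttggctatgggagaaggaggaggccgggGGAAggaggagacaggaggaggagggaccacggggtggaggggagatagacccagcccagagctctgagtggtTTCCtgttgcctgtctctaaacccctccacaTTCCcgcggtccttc
ENPP1: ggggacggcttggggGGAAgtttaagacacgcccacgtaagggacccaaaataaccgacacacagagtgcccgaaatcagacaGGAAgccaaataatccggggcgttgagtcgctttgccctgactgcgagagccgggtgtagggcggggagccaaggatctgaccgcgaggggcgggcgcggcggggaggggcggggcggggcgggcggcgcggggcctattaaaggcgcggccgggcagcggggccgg
SPP1: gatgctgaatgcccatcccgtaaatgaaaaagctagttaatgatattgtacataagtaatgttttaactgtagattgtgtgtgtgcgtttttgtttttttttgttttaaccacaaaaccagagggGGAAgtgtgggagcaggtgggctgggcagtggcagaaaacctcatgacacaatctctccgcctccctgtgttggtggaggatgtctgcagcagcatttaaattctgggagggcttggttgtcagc
The SPARC window held 5 matches to GGAA, a count reached or passed by 18.6% of 35116 RefSeq windows of the same length. The ENPP1 window held 2 and the SPP1 window 1, and 92.7% of all windows held at least 1. Among the windows not printed, that of ANKH held 3 matches, and ALPL windows 1, 2 and 3 held 3, 1 and 6. A count of 6 was reached or passed by 9.14% of all windows, and a link between these counts and the levels was not tested. None of the 3 printed windows, nor those of ANKH and ALPL, held the tandem repeat GGAAGGAA, which 3.06% of all windows held, or TGANTCA, the AP-1 motif, which 6.57% held. Both strands were searched and matches could overlap. A match is a run of letters and not a shown binding site.

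The siRNAs were checked on the values of EWSR1 and FLI1. These values are per gene, so the fusion transcript was not measured apart from unfused EWSR1 and FLI1. EWSR1 stood at 34.6 and 32.3 FPKM in the siEWSR1 libraries, against 46.5 and 47.2 FPKM in the siNeg libraries, and fell by 0.48 ± 0.06 on the log2 scale (limma adjusted p = 0.000444). FLI1 stood at 8.98 and 8.56 FPKM in the siFLI1 libraries, against 10.9 FPKM in both siNeg libraries, and fell by 0.29 ± 0.06 (adjusted p = 0.00423). EWSR1 was not called with siFLI1 (adjusted p = 0.11), nor FLI1 with siEWSR1 (adjusted p = 0.534). FPKM scales fragments by transcript length and library size, so levels of different genes can be compared per length. The files hold no fragment counts. The values of rows worth about 1 fragment put the depth of each library at 0.907 to 1 times that of siNeg replicate 1, and 12079 to 12741 genes stood at 1 FPKM or more. The deposited bounds lay a median of 22.9% to 24.0% from values near 1 FPKM and 4.12% to 4.19% from values of 100 FPKM or more.

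MGP (hg19, chromosome 12, 15034115 to 15038853) went with the widest differences of the 6 genes. The gene stood at 302.8 and 370.0 FPKM in the siEWSR1 libraries and at 403 and 429 FPKM in the siFLI1 libraries, against 0.898 and 1.102 FPKM in the siNeg libraries. Every library of either siRNA was thus far above both siNeg libraries, and both siFLI1 libraries were above both siEWSR1 libraries. The ratio of mean FPKM to that of siNeg was 336 for siEWSR1 and 416 for siFLI1. On the log2(FPKM + 0.5) scale used for tests across genes, which understates changes of genes that are low in 1 group, the differences were 7.81 ± 0.11 and 8.12 ± 0.11 (standard error of the limma fit, n = 2 libraries per group). Between siEWSR1 and siFLI1 the difference was -0.31 ± 0.11, and it lay between -0.46 and -0.17 when any 1 library was left out. In bulk RNA, more cells with the transcript and more transcript per cell cannot be told apart.

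The siNeg level of MGP, the denominator of these ratios, was low and had wide bounds. The authors' bounds ran from 0.612 to 1.18 FPKM in siNeg replicate 1 and from 0.776 to 1.43 FPKM in siNeg replicate 2. By contrast they lay 4.46% from the value in siEWSR1 replicate 1 and 4.40% in siFLI1 replicate 1. With a pseudocount of 0.1 the log2 differences were 8.26 with siEWSR1 and 8.57 with siFLI1, and with a pseudocount of 1 they were 7.39 and 7.71. By level, MGP ranked 138 and 109 among all gene symbols in the siEWSR1 libraries and 102 and 100 in the siFLI1 libraries, against 12237 and 11963 in the siNeg libraries. On the log2 scale of the fit, the difference ranked 3 of 13043 tested genes with siEWSR1 and 1 of 13043 with siFLI1. These ranks brought the gene into this description. They hold for the pseudocount of that scale and were not computed with another. The non-coding RNA H19 averaged 96.6 FPKM with siFLI1, against 0.056 FPKM with siNeg. Its lower siNeg level makes its difference depend more on the pseudocount than that of MGP.

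**Figure D1:**
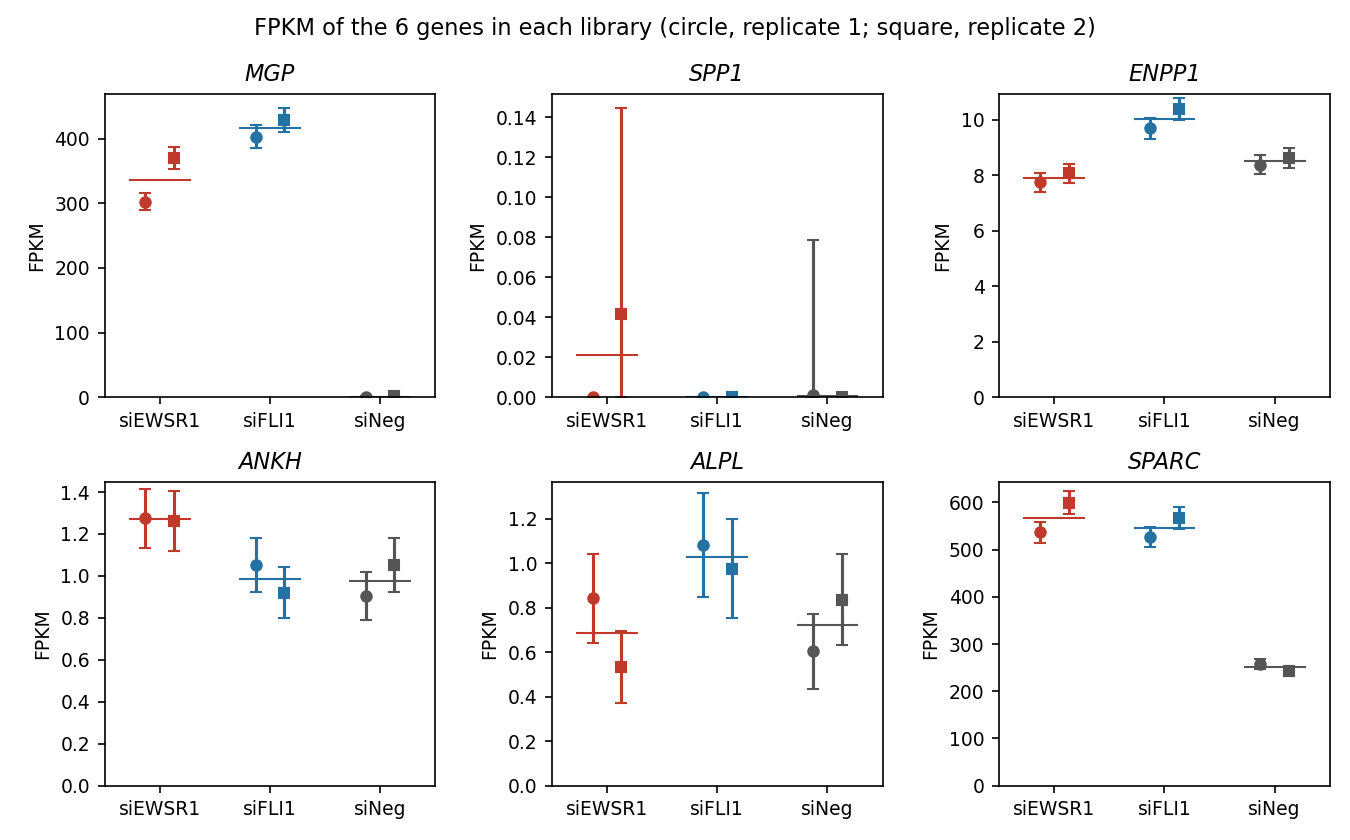
FPKM of each gene in each library, by siRNA; every vertical axis is linear and starts at 0. Circles and squares are replicates 1 and 2, vertical bars the authors' deposited bounds, and short lines the mean of 2 libraries. MGP and SPARC stood higher in all 4 libraries of the siRNAs against EWSR1 and FLI1 than in the siNeg libraries, while ENPP1 lay between 7.75 and 10.4 FPKM throughout.

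The other inhibitory matrix protein, SPP1 (chromosome 4, 88896802 to 88904563), was at or near 0 in every library. It was listed at 0 and 0.042 FPKM in the siEWSR1 libraries and at 0 FPKM in both siFLI1 libraries, against 0.0013 and 0 FPKM in the siNeg libraries. The upper bound of its highest value was 0.145 FPKM, so no difference between the groups was detectable and no fold is given. The bone phosphoproteins whose genes lie beside SPP1 on chromosome 4 were near 0 as well: IBSP and MEPE were listed at 0 FPKM in all 6 libraries, and DMP1 and DSPP reached at most 0.032 and 0.021 FPKM.

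The genes of pyrophosphate supply differed little beside MGP. ENPP1 lies on chromosome 6 (132129156 to 132216295). It was found at 7.75 and 8.08 FPKM in the siEWSR1 libraries and at 9.70 and 10.4 FPKM in the siFLI1 libraries, against 8.39 and 8.63 FPKM in the siNeg libraries. The siEWSR1 libraries were thus the lowest pair and the siFLI1 libraries the highest, with no overlap among the 3 groups. Its log2 difference from siNeg was -0.10 ± 0.06 with siEWSR1 and 0.23 ± 0.06 with siFLI1, and between siEWSR1 and siFLI1 it was -0.32 ± 0.06. ANKH lies on chromosome 5 (14704909 to 14871887). It was found at 1.28 and 1.26 FPKM in the siEWSR1 libraries and at 1.05 and 0.920 FPKM in the siFLI1 libraries, against 0.902 and 1.05 FPKM in the siNeg libraries. Only the siEWSR1 pair lay apart from siNeg, by 0.26 ± 0.11 on the log2 scale, and this direction did not hold under quantile normalization, where the difference was -0.09. The non-coding LOC100130744 lies within the span of ANKH, so the reads may not be separable. It stood at 3.68 and 3.79 FPKM with siEWSR1 and 3.195 and 2.86 FPKM with siFLI1, against 2.51 and 2.68 FPKM with siNeg.

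ALPL (chromosome 1, 21835851 to 21904905), which removes pyrophosphate, was also low. Its level stood at 0.843 and 0.534 FPKM in the siEWSR1 libraries and at 1.08 and 0.975 FPKM in the siFLI1 libraries, against 0.604 and 0.837 FPKM in the siNeg libraries. The siEWSR1 and siNeg libraries overlapped, and the siFLI1 pair lay above both. The deposited bounds of the lower siFLI1 library, 0.753 to 1.20 FPKM, took in the higher siNeg value. ALPL reached 1 FPKM in 1 library and SPP1 in 0, so both fell below the filter of 1 FPKM in 2 libraries, and 4 of the 6 genes entered the fit.

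SPARC (chromosome 5, 151040657 to 151066615) was the most abundant of the 6 genes in every library. Its RNA stood at 536.9 and 599.4 FPKM in the siEWSR1 libraries and at 526.5 and 566.8 FPKM in the siFLI1 libraries, against 257.8 and 243.2 FPKM in the siNeg libraries. All 4 libraries of the siRNAs against EWSR1 and FLI1 were above both siNeg libraries, and those of the 2 siRNAs overlapped. The log2 difference was 1.18 ± 0.07 with siEWSR1 and 1.12 ± 0.07 with siFLI1, ratios of mean FPKM of 2.27 and 2.18. By level SPARC already ranked 182 and 184 in the siNeg libraries, and it ranked 67 to 81 in the other 4. The promoter with 5 GGAA matches printed above belongs to this gene, and a link between these matches and its level was not tested.

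Set side by side, the order of levels changed at MGP. With siEWSR1 and with siFLI1 it was SPARC, MGP and ENPP1, followed by ANKH and ALPL. With siNeg, SPARC and ENPP1 led, and MGP (1.00 ± 0.14 FPKM, SD, n = 2) and ANKH (0.977 ± 0.11 FPKM) differed by less than their spread. With siFLI1, ALPL (1.03 ± 0.077 FPKM) and ANKH (0.986 ± 0.094 FPKM) likewise overlapped. Of the 4 genes in the fit, 3 were higher without overlap with siEWSR1 and 1 was lower, where 42.6% and 40.7% of all tested genes were higher and lower in this way. With siFLI1 3 of 4 were higher and 0 lower, where 45.6% and 39.1% of tested genes were. Between siEWSR1 and siFLI1, 1 was higher and 2 were lower with siEWSR1, where 20.1% and 32.9% of tested genes were. Nothing is read from these counts, since the genes were chosen on the same libraries. The comparisons with siNeg share the same 2 siNeg libraries, so they are not independent of each other.

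The genes whose profile over the 6 libraries lay nearest to that of MGP were IGFBP3, H19, TGM2, SULF2 and ART5. Nearness is the root mean square difference of log2(FPKM + 0.5) profiles, each centred on its siNeg mean, over 9280 genes of at least 5 FPKM in their highest group. IGFBP3, a secreted carrier of insulin-like growth factors, was nearest at 0.29, and the imprinted non-coding RNA H19 followed at 0.41. IGFBP3 averaged 526.8 ± 46.8 FPKM with siEWSR1 and 440.5 ± 22.2 with siFLI1, against 1.72 ± 0.04 with siNeg (SD, n = 2). MGP was higher with siFLI1 than with siEWSR1, whereas IGFBP3 was lower. H19 averaged 107.1 ± 6.41 FPKM with siEWSR1 and 96.6 ± 10.9 with siFLI1, against 0.056 ± 0.019 with siNeg. The siNeg levels of H19, TGM2 and ART5 lay under the 0.5 added before the log, so the distances and their order depend on that choice. Nearness was not computed with another pseudocount. TGM2, a transglutaminase that cross-links matrix proteins, was at a distance of 1.29, SULF2, an extracellular sulfatase of heparan sulfate, at 1.35 and ART5, an ADP-ribosyltransferase, at 1.55. TGM2 averaged 49.0 ± 2.62 FPKM with siEWSR1 and 74.0 ± 7.58 with siFLI1, against 0.22 ± 0.049 with siNeg, so that its siFLI1 libraries were the highest, as for MGP.

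**Figure D2:**
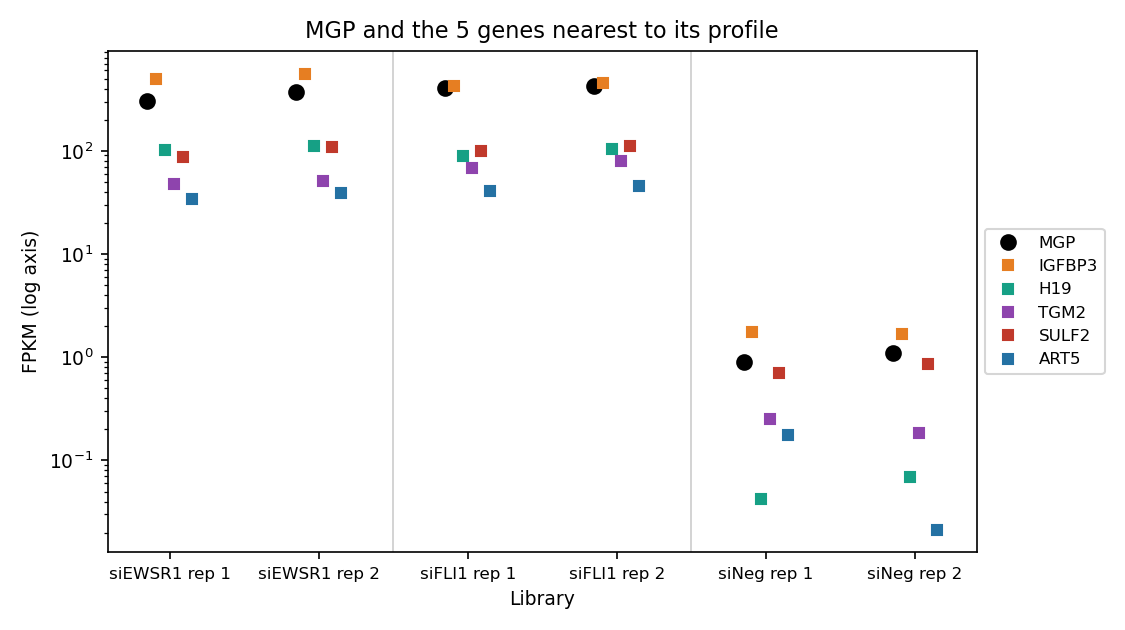
FPKM on a log axis of MGP (black circles) and the 5 genes with the nearest profiles (squares) in each of the 6 libraries. All 6 genes stood above 30 FPKM in the 4 libraries of the siRNAs against EWSR1 and FLI1 and below 2 FPKM in the siNeg libraries.

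For SPARC the nearest profiles lay at smaller distances: IP6K1, an inositol hexakisphosphate kinase, at 0.039, KLF3, a transcription factor, at 0.053 and STIM1, a calcium sensor of the endoplasmic reticulum, at 0.057. IP6K1 averaged 13.2 ± 0.73 FPKM with siEWSR1 and 12.8 ± 0.55 with siFLI1, against 5.42 ± 0.14 with siNeg. STIM1 averaged 29.02 ± 1.78 FPKM with siEWSR1 and 27.5 ± 1.03 with siFLI1, against 12.1 ± 0.44 with siNeg. No other gene of the 6 was apart from siNeg in both comparisons by at least 1 on the log2 scale.

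A list of 58 other genes of mineralization control, grouped by role, was tested in the fit over all 13043 genes that reached 1 FPKM in at least 2 libraries. Of the 58, 31 were tested and 26 never reached 1 FPKM. With siEWSR1 14 of 31 rose and 9 fell (limma, adjusted p under 0.05), beside 33.2% and 31.0% of all tested genes. With siFLI1 16 of 31 rose and 9 fell, beside 35.7% and 29.6% of all tested genes. GAS6, ENPP2, SPARCL1, SMOC1 and CD44, which rose, passed the filter only through libraries of the siRNAs against EWSR1 and FLI1. BMP2, which fell, passed it only through the siNeg libraries. The median log2 difference of the 31 genes was 0.06 with siEWSR1 and 0.22 with siFLI1, and over all tested genes it was 0.01 and 0.04. Between siEWSR1 and siFLI1 limma called 0 of the 31 genes, beside 0.790% higher and 3.07% lower of all tested genes. At an unadjusted p under 0.05, 2 were higher and 7 lower with siEWSR1. A robust variance trend called 1 of them, NT5E, lower with siEWSR1 (adjusted p = 0.034).

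**Figure D3:**
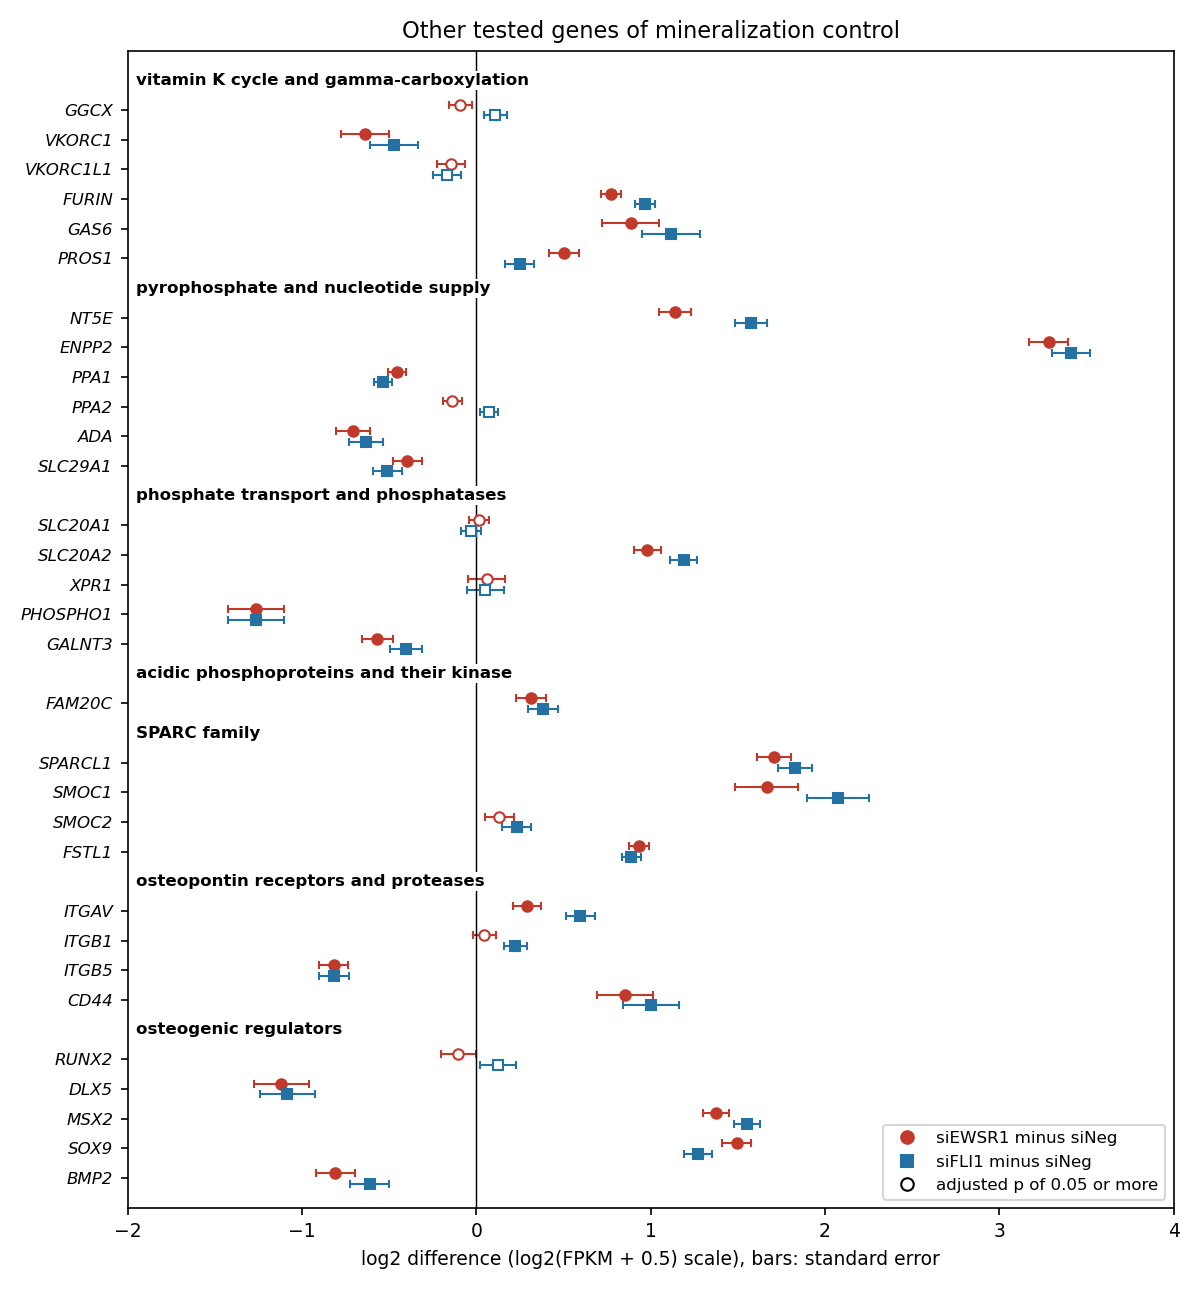
Log2 differences from siNeg of the 31 tested genes of mineralization control, grouped by role, with siEWSR1 as circles and siFLI1 as squares. Filled symbols passed an adjusted p of 0.05 in limma and bars are standard errors. ENPP2 stood farthest to the right, at 3.28 and 3.41, and PHOSPHO1 farthest to the left, at -1.26 for both siRNAs.

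The vitamin K-dependent step that MGP needs was followed through the RNA of GGCX, VKORC1 and VKORC1L1. GGCX, the gamma-glutamyl carboxylase, stood at 20.01 and 20.2 FPKM with siEWSR1 and 21.9 and 24.4 FPKM with siFLI1, against 21.2 and 21.7 FPKM with siNeg. It was called in neither comparison (limma adjusted p = 0.259 and 0.192), and it overlaps MAT2A. VKORC1, which recycles vitamin K, stood at 33.0 and 24.2 FPKM with siEWSR1 and 33.0 and 30.6 FPKM with siFLI1, against 42.5 and 46.1 FPKM with siNeg. VKORC1 fell by 0.64 ± 0.14 with siEWSR1 (adjusted p = 0.00667) and by 0.47 ± 0.14 with siFLI1 (adjusted p = 0.0222). Its call with siFLI1 ended without siFLI1 replicate 1 or 2 (adjusted p = 0.061 and 0.112) or siNeg replicate 1 or 2 (0.0586 and 0.108). With no filter the siFLI1 call of VKORC1 ended as well (limma adjusted p = 0.0686). VKORC1L1, a relative of VKORC1, stood at 6.43 to 8.10 FPKM in the 6 libraries and was not called (adjusted p = 0.148 and 0.103). FURIN, a protease that cleaves proproteins and is not an enzyme of that step, rose by 0.77 ± 0.06 and 0.97 ± 0.06. Other proteins made by the same carboxylation, GAS6 and PROS1, rose by 0.88 ± 0.16 and 0.50 ± 0.08 with siEWSR1 and by 1.12 ± 0.16 and 0.25 ± 0.08 with siFLI1. GAS6 overlaps an antisense gene, and quantile normalization ended both of its calls (adjusted p = 0.757 and 0.191). It passed the filter only through libraries of the siRNAs against EWSR1 and FLI1, where it was high. PROS1 lost its siFLI1 call without siFLI1 replicate 1 or 2 (adjusted p = 0.0817 and 0.154) or siNeg replicate 1 or 2 (0.073 and 0.169), and with the replicate number as a block (0.0543). It also lost that call with no filter (0.0749), with median-of-ratios scaling (0.07) and under quantile normalization, where the difference was 0.06 (0.601). BGLAP, or osteocalcin, another member of this family, stood at 0.760 and 0.590 FPKM with siEWSR1 and 0.659 and 0.359 FPKM with siFLI1, against 0.802 and 0.482 FPKM with siNeg, and was below the filter.

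Around ENPP1 and ANKH, the genes of nucleotide and pyrophosphate turnover moved in both directions. NT5E, the ectonucleotidase that turns AMP into adenosine, stood at 13.3 and 14.5 FPKM with siEWSR1 and 18.2 and 19.8 FPKM with siFLI1, against 6.53 and 5.58 FPKM with siNeg. It rose 2.20-fold and 2.98-fold (limma adjusted p = 0.000105 and 2.57e-05). Folds of the listed genes are on the FPKM + 0.5 scale, which understates the change of a gene that is low in 1 group. ENPP2, or autotaxin, a relative of ENPP1 that makes lysophosphatidic acid rather than pyrophosphate, stood at 8.88 and 10.2 FPKM with siEWSR1 and 9.53 and 11.4 FPKM with siFLI1, against 0.553 and 0.504 FPKM with siNeg. It rose 9.73-fold and 10.6-fold on that scale (adjusted p = 5.33e-06 and 3.63e-06), log2 differences of 3.28 and 3.41. With a pseudocount of 0.1 these differences became 3.93 and 4.07. ENPP2 passed the filter only through libraries of the siRNAs against EWSR1 and FLI1, where it was high. PPA1, the cytosolic pyrophosphatase, fell by 0.46 ± 0.05 and 0.53 ± 0.05, and ADA, adenosine deaminase, fell by 0.71 ± 0.10 and 0.63 ± 0.10. ABCC6, whose loss causes the calcification disorder pseudoxanthoma elasticum, was below the filter, at 0.525 and 0.648 FPKM with siEWSR1 and 0.895 and 1.19 FPKM with siFLI1, against 0.139 and 0.219 FPKM with siNeg. Its 4 values with the siRNAs against EWSR1 and FLI1 were all above both siNeg values.

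Phosphate handling was likewise mixed. PHOSPHO1, a phosphatase that releases phosphate inside matrix vesicles, stood at 8.04 and 5.56 FPKM with siEWSR1 and 6.84 and 6.55 FPKM with siFLI1, against 15.6 and 17.98 FPKM with siNeg. It fell 2.40-fold with either siRNA (limma adjusted p = 0.000659 and 0.000613). PHOSPHO1 thus stood above ALPL, its partner phosphatase, in every library. SLC20A2, a sodium-phosphate cotransporter, rose by 0.98 ± 0.08 and 1.19 ± 0.08, although it overlaps SMIM19. The related transporter SLC20A1 stood at 12.6 to 13.4 FPKM in all 6 libraries and was not called (adjusted p = 0.849 and 0.642). GALNT3, which glycosylates the phosphate hormone FGF23, fell by 0.57 ± 0.09 and 0.40 ± 0.09, and its call with siFLI1 ended without siNeg replicate 2 (adjusted p = 0.0545). FGF23 was listed at 0 FPKM in every library.

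Among relatives and partners of the matrix proteins, 3 of 4 tested genes of the SPARC family rose with siEWSR1 and 4 of 4 with siFLI1, beside 33.2% and 35.7% of all tested genes. SPARCL1 and SMOC1 reached 1 FPKM only in libraries of the siRNAs against EWSR1 and FLI1, so the filter let them in through their rise. Nothing is read from these counts. FSTL1, a secreted follistatin-like glycoprotein, stood at 103 and 110 FPKM with siEWSR1 and 100 and 106 FPKM with siFLI1, against 55.2 and 55.8 FPKM with siNeg. It rose, with differences of 0.93 ± 0.06 and 0.89 ± 0.06 on the log2 scale (limma adjusted p = 3.67e-05 and 3.58e-05). SPARCL1, or hevin, stood at 2.25 and 2.49 FPKM with siEWSR1 and 2.58 and 2.65 FPKM with siFLI1, against 0.414 and 0.343 FPKM with siNeg, and rose by 1.71 ± 0.10 and 1.83 ± 0.10. SMOC1, a calcium-binding matricellular protein, was listed at 0 FPKM in both siNeg libraries and reached 0.90 and 1.30 FPKM with siEWSR1 and 1.35 and 1.90 FPKM with siFLI1. Its relative SMOC2 rose with siFLI1 by 0.23 ± 0.08 (adjusted p = 0.0456), a call that ended without any 1 siFLI1 library (0.212 and 0.0557) or siNeg library (0.11 and 0.17), and under quantile normalization (0.126), median-of-ratios scaling (0.0801), no filter (0.0832) and no variance trend (0.0537). FAM20C, the secreted kinase that phosphorylates osteopontin, rose by 0.31 ± 0.09 and 0.38 ± 0.09, and its siEWSR1 call ended without siEWSR1 replicate 1 (adjusted p = 0.0839) or siNeg replicate 2 (0.0968), and quantile normalization ended both of its calls (0.124 and 0.0521).

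Of 7 listed receptors and proteases of osteopontin, 4 were tested. ITGB3, the beta chain that pairs with ITGAV in a main osteopontin receptor, was not among them, at or under 0.03 FPKM in every library. CD44, a receptor of hyaluronan and osteopontin, stood at 1.42 and 1.86 FPKM with siEWSR1 and 2.14 and 1.60 FPKM with siFLI1, against 0.751 and 0.608 FPKM with siNeg, and rose by 0.85 ± 0.16 and 1.00 ± 0.16 (limma adjusted p = 0.00374 and 0.00184). The call with siEWSR1 was lost under quantile normalization (adjusted p = 0.0718). CD44 passed the filter only through libraries of the siRNAs against EWSR1 and FLI1, where it was high. Of the integrin chains, ITGAV rose by 0.29 ± 0.08 and 0.60 ± 0.08, and its siEWSR1 call ended without siEWSR1 replicate 2 (adjusted p = 0.0813) or siNeg replicate 1 or 2 (0.0542 and 0.0982). ITGB5 fell by 0.82 ± 0.08 with either siRNA. With siEWSR1, ITGB1 was not called (limma adjusted p = 0.564) except under quantile normalization, where the difference was 0.23 (adjusted p = 0.0123). ITGB1 was called with siFLI1, at 0.22 ± 0.07, but not without siFLI1 replicate 2 (adjusted p = 0.129) or siNeg replicate 2 (0.128).

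Of the osteogenic regulators, MSX2 and SOX9 rose while DLX5 and BMP2 fell with both siRNAs. RUNX2 was called with neither (limma adjusted p = 0.408 and 0.319). DLX5, a homeobox factor of bone development, stood at 29.7 and 22.0 FPKM with siEWSR1 and 29.4 and 23.4 FPKM with siFLI1, against 54.6 and 57.8 FPKM with siNeg, falling 2.17-fold and 2.12-fold (limma adjusted p = 0.00107 and 0.00117). MSX2, another homeobox factor, rose 2.59-fold and 2.93-fold, and SOX9, the factor that specifies cartilage, rose 2.81-fold and 2.41-fold. BMP2, a bone morphogenetic protein that MGP binds, stood at 0.405 and 0.359 FPKM with siEWSR1 and 0.532 and 0.490 FPKM with siFLI1, against 1.02 and 1.07 FPKM with siNeg.

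Genes within 200 kb of MGP, a window chosen after the values were seen, numbered 11, of which 4 were tested. With siEWSR1 1 of the 4 rose and 1 fell, beside 33.2% and 31.0% of all tested genes. With siFLI1 2 rose and 1 fell, beside 35.7% and 29.6%, and nothing is read from these counts. ERP27, the nearest at 28107 bases, was listed at 0 FPKM in both siNeg libraries and reached 0.203 and 0.301 FPKM with siEWSR1 and 0.267 and 0.319 FPKM with siFLI1.

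Cell type markers were read beside these values. All 6 Ewing sarcoma markers were tested and all 6 fell with siEWSR1 and 5 with siFLI1, beside 31.0% and 29.6% of all tested genes. CD99, which changed least of the 6 in proportion, stood at 246 to 289 FPKM in the 4 libraries of these siRNAs, against 303 and 308 FPKM with siNeg. NR0B1 averaged 62.5 FPKM with siEWSR1 and 62.7 with siFLI1, against 219 with siNeg. CCK averaged 15.9 and 15.3 FPKM, against 57.0 with siNeg. NKX2-2, STEAP1 and PRKCB were also lower in all 4 of these libraries than in either siNeg library. Of 5 osteoblast markers 4 stayed under 1 FPKM, among them IBSP, listed at 0 throughout. RUNX2, the remaining osteoblast marker, stood at 1.61 to 2.16 FPKM in the 6 libraries and was called with neither siRNA. All 5 chondrocyte and all 5 endothelial markers stayed under 1 FPKM. The endothelial markers summed to 1.00 to 1.05 FPKM with siEWSR1 and 0.992 to 1.06 with siFLI1, against 0.354 to 0.428 with siNeg. Of these, KDR stood at 0.648 and 0.583 FPKM with siEWSR1 and 0.428 and 0.554 with siFLI1, against 0.131 and 0.174 with siNeg. CDH5 and TEK were also higher, and VWF was at or near 0. PECAM1 was lower, at 0.068 and 0.116 FPKM with siEWSR1 and 0.080 and 0.046 with siFLI1, against 0.168 and 0.207 with siNeg. The chondrocyte markers summed to 0.222 to 0.264 FPKM with siEWSR1 and 0.279 to 0.349 with siFLI1, against 0.115 to 0.126 with siNeg. Of 5 blood markers CD3E and HBB were listed at 0, and only ITGB2 passed 1 FPKM; it fell with both siRNAs, and the list summed to 86.8 to 111 FPKM with siEWSR1 and 90.3 to 99.5 with siFLI1, against 171 to 179 with siNeg. Of 5 osteoclast and macrophage markers 2 were tested and 1 rose with each siRNA, beside 33.2% and 35.7% of all tested genes. The sum of the 5 was 11.1 to 11.4 FPKM with siEWSR1 and 11.7 to 12.6 with siFLI1, against 8.44 to 8.85 with siNeg. Of 5 smooth muscle markers 4 rose with each siRNA, beside 33.2% and 35.7% of all tested genes. Of these, DES and CNN1 passed the filter only through libraries of the siRNAs against EWSR1 and FLI1. The summed level of the 5 markers was 70.4 to 71.6 FPKM with siEWSR1 and 88.3 to 94.4 with siFLI1, against 43.3 to 46.8 with siNeg. The defining marker MYH11 stayed at or under 0.218 FPKM. The part of these lists in the values of MGP and SPARC was not tested.

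**Figure D4:**
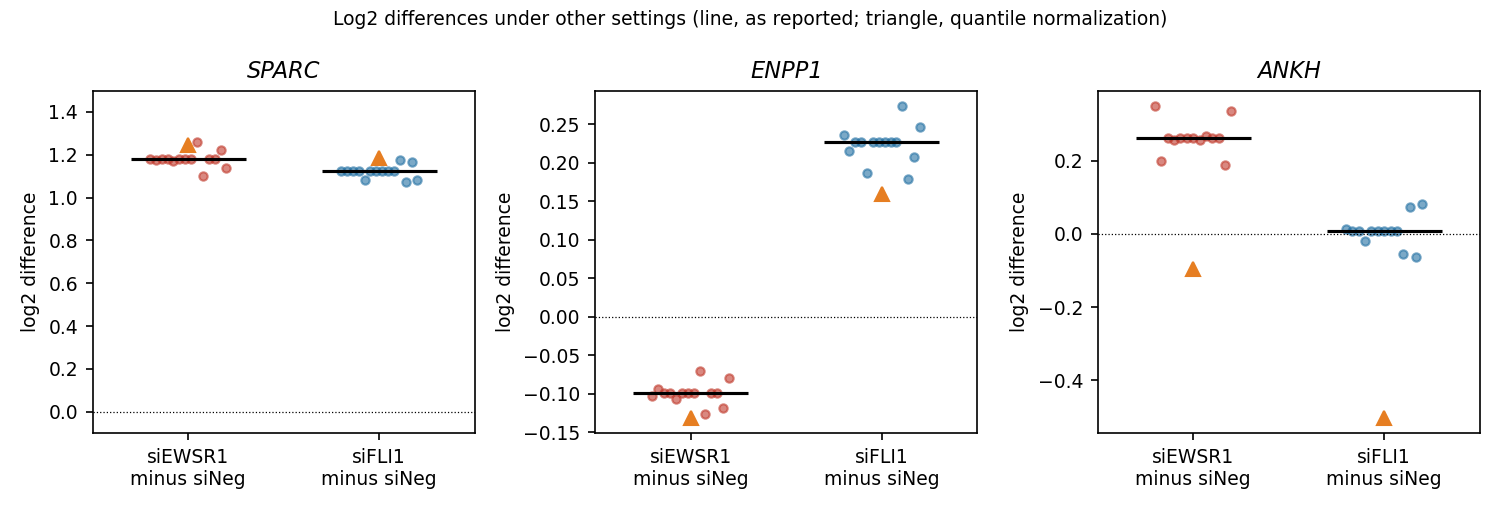
Log2 differences from siNeg of SPARC, ENPP1 and ANKH as reported (lines), under quantile normalization (triangles) and under the other alternative settings that could be run (circles). SPARC stayed between 1.07 and 1.26, ENPP1 kept opposite signs for the 2 siRNAs, and ANKH with siEWSR1 turned to -0.09 under quantile normalization.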

How the data were processed

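RNA libraries of TC32 cells were sequenced, and the authors deposited 1 table of FPKM per library with the lower and upper bound of an interval, per the file headers. Per the submitters' processing notes, the tools were TopHat2 2.0.13, Cufflinks and Cuffdiff and the build was hg19. Annotation, strand setting and multi-read handling were not stated. Values of 380 symbols on more than 1 row were summed, and starts were converted to count from 1. Between 41.1% and 43.7% of low rows came out as whole fragments within 0.01, so no count model was used. The bounds narrow less with level than counting alone would give, so no fragment totals were taken from them. The relative depth rests on the bounds only in picking rows of about 1 fragment.

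Genes with at least 1 FPKM in at least 2 libraries (13043) entered limma 3.58.1 (R 4.3.3) on the log2(FPKM + 0.5) scale, in 1 fit over 3 groups with a variance trend (3 residual and 3.39 prior degrees of freedom). P-values are two-sided and adjusted over all tested genes by Benjamini-Hochberg at 0.05. The fit was tested on simulated data. Members, lists and motifs were chosen with earlier results of these data known. Named genes are the members, 10 fixed list genes, up to 4 called genes per role and siRNA by size of change, and the nearest profiles; neighbours and other list genes were named after their values were seen. Alternatives changed the pseudocount, filter, scaling, variance model and replicate block, or left out 1 library. Promoter windows come from RefSeq GRCh38.p14, for 5 of the 6 genes. The single values of the tested neighbours of MGP are not reported here.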

Additional observations from a re-analysis of the deposited data

Results flagged for a closer look

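Libraries of the siRNAs lay on opposite sides of siNeg for ENPP1, GGCX and PPA2, below it with siEWSR1 and above it with siFLI1. Of all 13043 tested genes, 283 (2.17%) did the same in either direction. The log2 difference between siEWSR1 and siFLI1 was -0.32 for ENPP1, which was not tested because the gene was chosen on these libraries. It was -0.20 for GGCX (limma adjusted p = 0.139) and -0.21 for PPA2, the mitochondrial pyrophosphatase (adjusted p = 0.0813), and neither passed the threshold. PPA2 stood at 24.2 and 23.1 FPKM with siEWSR1 and 27.0 and 27.8 FPKM with siFLI1, against 26.1 and 26.0 FPKM with siNeg.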

How the results depend on the processing

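Quantile normalization turned the ANKH difference between siEWSR1 and siNeg to -0.0948 and moved that between siFLI1 and siNeg to -0.50 and that between siEWSR1 and siFLI1 to 0.41; the cause was not tested. It moved MGP to 7.65 with siEWSR1 and 7.92 with siFLI1, and ENPP1 with siFLI1 to 0.16. A pseudocount of 0.1 gave MGP 8.26 and 8.57 and ANKH 0.35 with siEWSR1 and 0.34 between siEWSR1 and siFLI1, and a pseudocount of 1 gave MGP 7.39 and 7.71. A mean FPKM of at least 5, which tests fewer genes, left 2518 and 2787 genes higher with siEWSR1 and siFLI1, against 4331 and 4656, and 6 and 8 genes of mineralization control, against 14 and 16.

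Calls between siEWSR1 and siFLI1 depended most on the settings: 103 genes were higher and 401 lower, against 15 and 73 with no filter, 57 and 262 with the replicate block and 185 and 640 with a robust variance trend, which also called 1 gene of mineralization control lower. Quantile normalization called 209 higher and median-of-ratios scaling 159. Without 1 library they ran from 3 to 85 higher and 2 to 508 lower; without siFLI1 replicate 2 they were 3 and 2, without siFLI1 replicate 1 they were 6 and 17, without siEWSR1 replicate 2 they were 9 and 97, and without siNeg replicate 1 or 2 they were 12 and 91 or 10 and 79. Leaving out 1 library moved MGP between 7.66 and 7.95 with siEWSR1 and between 8.02 and 8.22 with siFLI1.

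Over 15 alternatives, 1140 fits of 26 named genes of mineralization control ended 34 calls, gained 2 and reversed 0. Many of these fits held no call that could end, since 0 of the 31 tested list genes were called between siEWSR1 and siFLI1. Named genes outside the fixed list were picked because they were called, by size of change. The share of fits that ended a call is thus no measure of how stable the calls are. Same-numbered libraries deviated from their group means with correlations of -0.14 (siEWSR1 and siNeg), -0.05 (siFLI1 and siNeg) and 0.07 (siEWSR1 and siFLI1) across genes. The labels give only the number, and with 2 libraries per group these values cannot show whether same-numbered libraries were handled together. The replicate block called 4242 genes higher and 3948 lower with siEWSR1 and 4530 and 3777 with siFLI1. A pairing with the siNeg numbers crossed, chosen after seeing the data, called 4563 and 4275 with siEWSR1. Depth limits SPP1, ALPL and the siNeg level of MGP.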
